A study of Homo sapiens with 9 samples.

Results

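Newly made RNA is released from RNA polymerase II by 2 sets of machines, and the levels of 33 transcripts that encode them were followed here: 14 Integrator subunits and 19 cleavage and polyadenylation factors, the last set counted with the exonuclease gene XRN2. The 33 were chosen by name and not by a measured value, though earlier results of these data were known. All 33 were present among the 36601 genes of the count files and among the 18069 genes tested. Cleavage and polyadenylation factors read the AAUAAA signal and the bases around it near the end of a message, cut the RNA there and add the poly(A) tail. Integrator carries a related pair of cleavage subunits and a bound phosphatase, forms the 3′ ends of small nuclear RNAs and ends transcription early at many other genes. Both machines meet the polymerase partly through the C-terminal domain (CTD) of its largest subunit, RPB1, a tail of repeats, and after cleavage XRN2 degrades the RNA still being made.

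The cells were U2OS, an established human osteosarcoma line. Their RPB1 carried an N-terminal tag, either HaloTag, which binds a synthetic ligand, or Dendra2, a fluorescent protein. The 6 genotypes were HaloTag-RPB1 with a CTD of 25, 52 or 70 repeats (25R, 52R, 70R) and Dendra2-RPB1 with the same 3 lengths. Every genotype was kept in the polymerase II inhibitor α-amanitin for 6 days, at 1 µg/ml, and no untagged or untreated library was analysed here. Each genotype gave 1 single-cell library read at the 3′ ends of transcripts. The HaloTag libraries were sequenced on other dates than the Dendra2 libraries, so tag and sequencing campaign cannot be told apart. The sources used here do not say whether each line is a single clone.

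The 6 libraries held between 2718 and 4677 kept cells and between 52529127 and 58396383 unique molecular identifiers (UMIs, 1 per captured molecule) in the genes tested. Median UMIs per cell were 10812 to 16020 in HaloTag libraries and 15770 to 18739 in Dendra2 libraries. Mean mitochondrial shares were 7.02% to 9.31% in HaloTag and 5.54% to 6.13% in Dendra2 libraries, and cells called G1 made up 43.3% to 44.4% and 34.0% to 39.5%. Any 2 libraries shared at most 7 cell barcodes. The labels call the cells epithelial, but of 8 epithelial markers only 2 reached 10 CPM (UMI counts scaled to a common library total) in every library, and CDH1, KRT19 and KRT5 stayed under 1 CPM. The epithelial markers summed to 1044 to 1575 CPM in HaloTag and 850.1 to 1603 CPM in Dendra2 libraries. Of 8 mesenchymal and osteoblast markers, 5 reached 10 CPM in every library, with COL1A2 under 1 CPM. The summed level of this list was 3018 to 4147 CPM in HaloTag and 2978 to 3404 CPM in Dendra2 libraries, against 0.724 to 2.74 and 0.685 to 1.01 CPM for 6 leukocyte markers.

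The genes themselves stood at modest levels. Since a transcript is counted once at its 3′ end, CPM, here of UMIs, were not divided by length. XRN2 was the highest of the 33, with 175, 195 and 220 CPM in HaloTag 25R, 52R and 70R, and 155, 197 and 192 CPM in the Dendra2 libraries in that order. INTS9, the inactive partner of the Integrator endonuclease, was the lowest, with 8.53, 6.92 and 7.01 CPM in the HaloTag and 7.32, 5.74 and 6.75 CPM in the Dendra2 libraries, in the same order of CTD length. That is 294 to 505 UMIs per library for INTS9 and 7717 to 12205 for XRN2. The 14 Integrator subunits together gave 220.0 to 259.6 CPM, and the other 19 genes gave 930 to 1023 CPM. Across the 6 libraries the 33 summed to between 1175 and 1250 CPM.

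Poly(A) signals of several of these transcripts are shown because the libraries count molecules next to them. They come from GENCODE v44 transcripts on GRCh38 and run from the signal hexamer, in capitals, to the annotated end, or for at most 30 bases, which stops INTS13 short of its end.
CPSF2: AATAAAcagattctgaaggtc
PAPOLA: AATAAAaaaaaaacagcacaatctca
NUDT21: AATAAAaaatatttgaaagagaa
INTS6: AATAAAttccttattgaaggtaa
INTS13: AATAAAactattaaaatatttgaaatgcaa
XRN2: AATAAAgttaaacttttaaaactc
INTS3: ATTAAAaccaggatggagagca
CPSF4: ATTAAAgcttgttttttaa
These sites lie in CPSF2 at chr14:92172125-92172145 (plus strand), PAPOLA at chr14:96567091-96567116 (plus), NUDT21 at chr16:56429133-56429155 (minus), INTS6 at chr13:51361577-51361599 (minus), INTS13 at chr12:26905183-26905212 (minus), XRN2 at chr20:21389802-21389825 (plus), INTS3 at chr1:153774787-153774808 (plus) and CPSF4 at chr7:99457355-99457373 (plus). INTS3 and CPSF4 were the 2 members with the variant ATTAAA and no AATAAA in their last 50 bases. A further 24 members had AATAAA there, searched first, against 67.1% of 13967 genes for AATAAA and 15.1% for ATTAAA alone. In the other 7 members neither hexamer lay in that window.

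No member was called different between tags or between CTD lengths after adjustment over all 18069 genes. The test was edgeR's quasi-likelihood test on summed counts with Benjamini-Hochberg adjustment at 0.05, and 0 of 33 members passed for HaloTag against Dendra2, where 0.327% of all genes did. For 25R against 52R, 0 of 33 passed (all genes 0.0443%). For 70R against 52R and for 70R against 25R, 0 of 33 passed, with 0% of all genes in both. On simulated counts this test recovered 40% of 2-fold changes between tags and 23% between 70R and 25R. Differences of that size can therefore be missed, and 0 calls do not show equal levels. At an unadjusted p under 0.05, 2 members passed between tags (all genes 19.6%), SYMPK lower with HaloTag (9.2%) and INTS6 higher (10.4%). Between 25R and 52R, 4 passed (12.7%), CPSF2 and PAPOLA lower at 25R (6.66%) and INTS13 and NUDT21 higher (6.07%). Between 70R and 52R, 1 passed (4.65%), INTS2 lower at 70R (2.62%), with 0 higher (2.03%). Between 70R and 25R, 3 passed (12.2%), NUDT21 lower at 70R (6.09%) and CPSF2 and PAPOLA higher (6.15%). In each contrast the members' share was near or below that of all genes. DESeq2 on the same design called 0 members between tags and between 70R and 52R. It called CPSF2 and NUDT21 between 25R and 52R, and CPSF2 and PAPOLA between 70R and 25R. DESeq2 also called more of the 18069 genes than edgeR, with 1130 between tags and 489 between 25R and 52R. Its counts were at most 67 between 70R and 52R and 448 between 70R and 25R. With 1 library per genotype, the spread came from how far the tag difference varied with CTD length, so p-values measure these libraries only.

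The members' differences were centred near 0. Their median log2 difference was 0.00 between tags (all genes 0.03), −0.03 for 25R against 52R (0.01), 0.06 for 70R against 52R (−0.01) and −0.00 for 70R against 25R (−0.02). Among the 31 members with a mean of at least 10 CPM, the median coefficient of variation over the 6 libraries was 12.7%, against 16.3% for 8183 genes of that level, and 22 of the 31 lay below that gene median. INTS4, the scaffold that holds the Integrator cleavage pair, had the smallest variation. It gave 15.1, 15.5 and 14.1 CPM in HaloTag and 14.05, 14.2 and 14.05 CPM in Dendra2 libraries, a coefficient of variation of 4.35%.

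**Figure D1:**
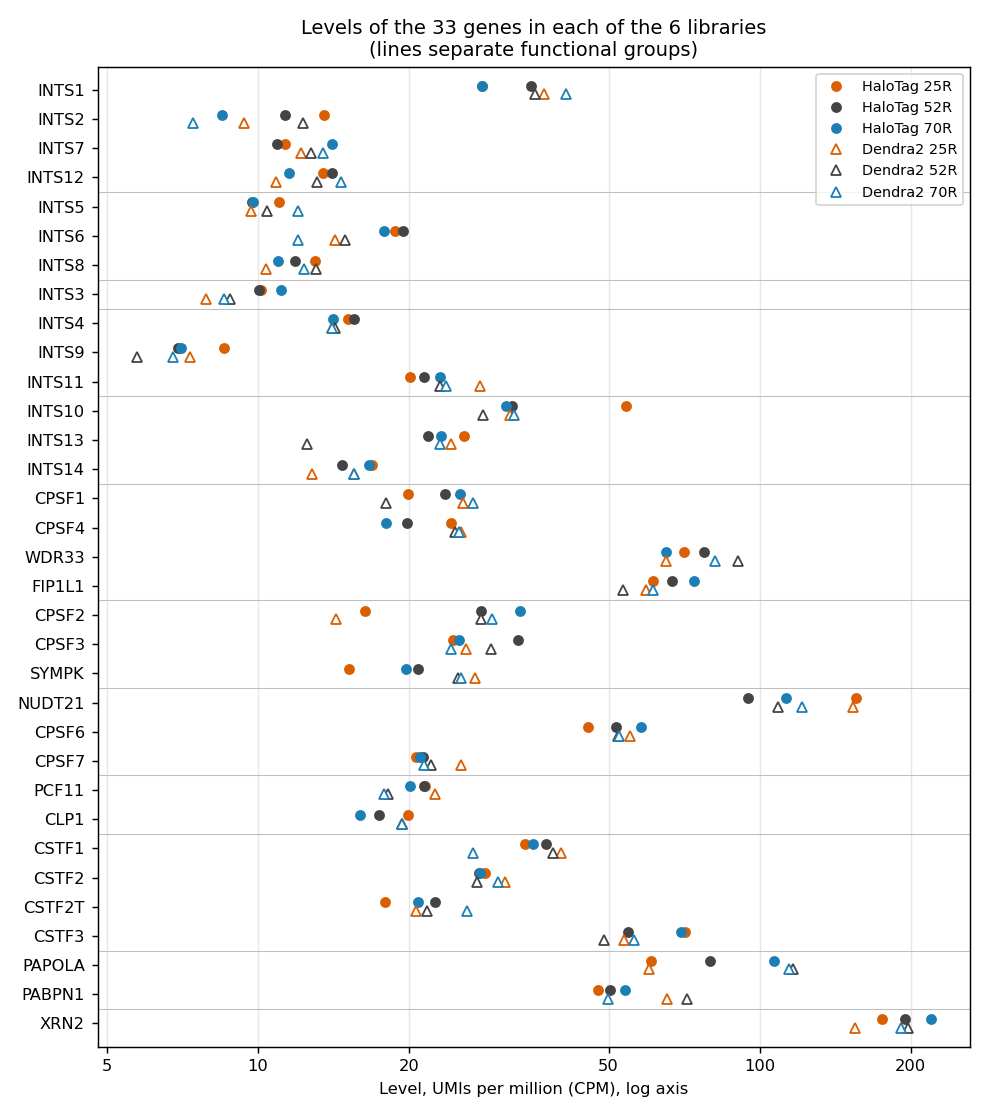
Level of each of the 33 genes in the 6 libraries, in CPM on a logarithmic axis, with lines between functional groups; filled circles are HaloTag, open triangles Dendra2, and colours mark CTD lengths. XRN2 lies highest (155 to 220 CPM) and INTS9 lowest, and both 25R symbols of CPSF2 (16.4 and 14.3 CPM) stand below its other 4.

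Among Integrator subunits, INTS6, which ties the phosphatase PP2A to the complex, showed the clearest order by tag. INTS6 gave 18.7, 19.5 and 17.8 CPM in HaloTag 25R, 52R and 70R, and 14.2, 14.9 and 12.0 CPM in the Dendra2 libraries. All 3 HaloTag libraries were above all 3 Dendra2 libraries, with means of 18.7 ± 0.848 (SD, n = 3) and 13.7 ± 1.53 CPM (SD, n = 3). Its log2 difference was 0.45 (SE 0.14, 95% confidence interval 0.12 to 0.78), with an edgeR p of 0.0148 and an adjusted p of 0.168. In cells called G1 alone, the difference was 0.53 and the edgeR adjusted p 0.0851, and with cells of at most 10% mitochondrial counts it was 0.45 (adjusted p 0.184).

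INTS3, the subunit also found in a sensor complex for single-stranded DNA, gave 10.1, 10.1 and 11.1 CPM in HaloTag and 7.86, 8.79 and 8.53 CPM in Dendra2 libraries. The groups did not overlap, and the edgeR log2 difference was 0.31 (SE 0.15, adjusted p 0.317). The last exon of INTS3 also overlaps the gene SLC27A3 on the same strand, so the count of INTS3 may be affected. INTS1, the large backbone subunit, lay the other way, with 27.9, 35.1 and 27.9 CPM in HaloTag and 37.1, 35.7 and 41.1 CPM in Dendra2 libraries. All HaloTag values were below all Dendra2 values, though HaloTag 52R came within 1 CPM of Dendra2 52R, and the edgeR log2 difference was −0.33 (SE 0.15, adjusted p 0.289).

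The cleavage pair of Integrator, INTS11 and INTS9, did not separate by tag. INTS11, the endonuclease, gave 20.1, 21.4 and 23.1 CPM in HaloTag and 27.7, 23.0 and 23.7 CPM in Dendra2 libraries, where the highest HaloTag value lay just above the lowest Dendra2 value. The ratio of INTS9 to INTS11 was 0.425, 0.323 and 0.304 in HaloTag and 0.264, 0.25 and 0.285 in Dendra2 libraries, without overlap. Its nearest values across tags, 0.304 and 0.285 in the 70R libraries, rest on only 390 and 360 INTS9 UMIs. This ratio was not tested, and it compares libraries rather than amounts of the 2 transcripts, since capture may differ between 3′ ends.

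In the arm formed by INTS10, INTS13 and INTS14, 2 members had a single library far from the others. INTS10 gave 54.1, 32.1 and 31.2 CPM in HaloTag 25R, 52R and 70R and 31.8, 28.0 and 32.4 CPM in the Dendra2 libraries, so HaloTag 25R stood above the other 5. For 25R against 52R this made an edgeR log2 difference of 0.49 (SE 0.22, adjusted p 0.425), which ranged from 0.11 to 0.84 as single libraries were left out. INTS13 gave 25.7, 21.9 and 23.1 CPM in HaloTag and 24.2, 12.5 and 23.1 CPM in Dendra2 libraries, so Dendra2 52R stood below the other 5. Its log2 difference of 25R to 52R was 0.57 (SE 0.24, edgeR adjusted p 0.389), and it was 0.23 to 0.97 with single libraries left out. INTS14 had no such library and stayed between 12.8 and 16.9 CPM.

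INTS2, another subunit of the Integrator backbone, was the only member to pass unadjusted for 70R against 52R. INTS2 gave 13.5, 11.3 and 8.47 CPM in HaloTag 25R, 52R and 70R and 9.37, 12.3 and 7.43 CPM in the Dendra2 libraries. Both 70R libraries were the lowest, and the log2 difference was −0.58 (SE 0.22, edgeR p 0.0364, adjusted p 0.965). It was −0.32 without Dendra2 52R and −0.81 without HaloTag 52R. The remaining subunits INTS5, INTS7, INTS8 and INTS12 ranged from 9.69 to 14.6 CPM, and no contrast had an unadjusted p under 0.05 in them.

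By tag, 10 of the 14 Integrator subunits had log2 differences above 0, with a median of 0.11, and 7 of the 19 other genes did, with a median of −0.08, beside 9484 of the 18069 genes tested. The Integrator median was 0.25 between the 25R libraries, 0.04 between the 52R and 0.01 between the 70R libraries. HaloTag libraries lay wholly below Dendra2 libraries in 4 members (INTS1, CPSF4, SYMPK and CPSF7; all genes 11.6%, those of at least 10 CPM 17.3%) and wholly above them in 3 (INTS6, INTS3 and FIP1L1; 12.7% and 9.51%).

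**Figure D2:**
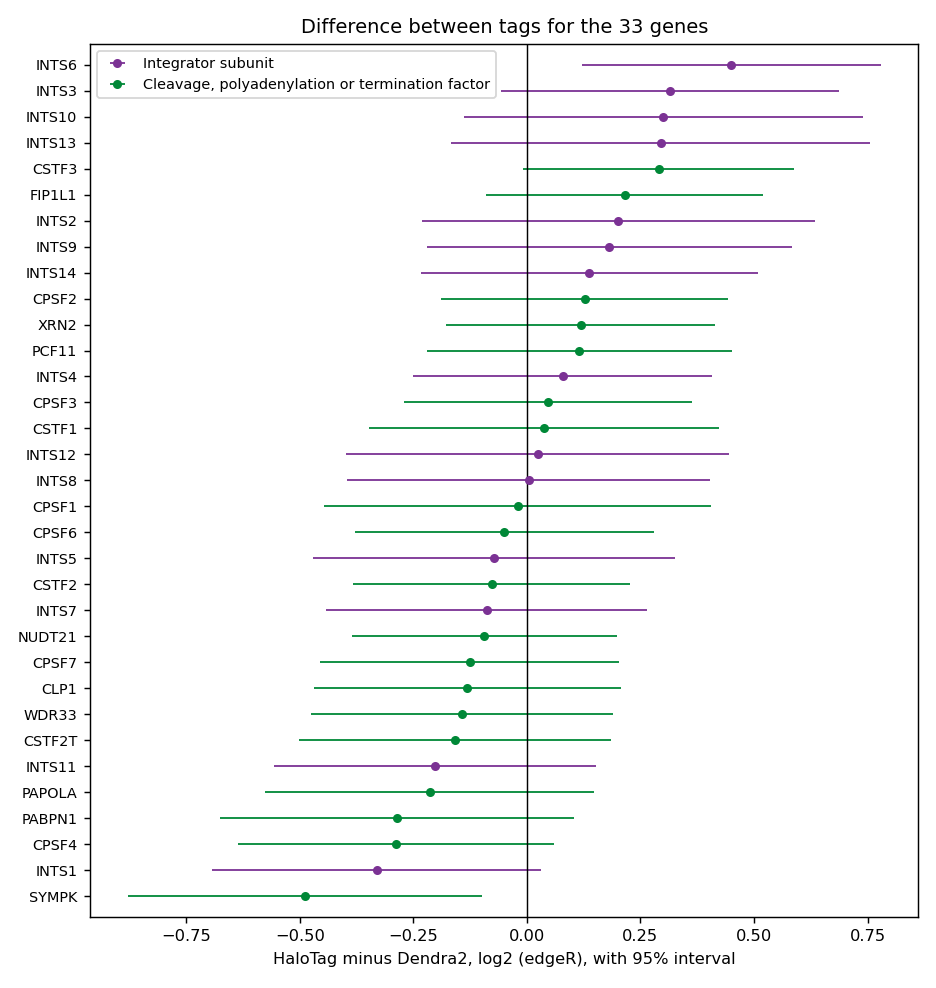
Log2 difference of HaloTag to Dendra2 for each of the 33 genes, as points for the edgeR estimate and lines for its 95% confidence interval, in order of size and coloured by complex. The intervals of INTS6 (0.12 to 0.78) and SYMPK (−0.88 to −0.10) are the ones that leave out 0.

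In the module that recognises the poly(A) signal, CPSF4 and WDR33 touch the hexamer itself, FIP1L1 binds U-rich RNA and recruits the polymerase, and CPSF1 is the scaffold. CPSF4 gave 24.3, 19.8 and 18.0 CPM in HaloTag and 25.4, 24.7 and 25.2 CPM in Dendra2 libraries. The groups did not overlap, but HaloTag 25R was near the Dendra2 values, and the log2 difference was −0.29 (SE 0.14, edgeR adjusted p 0.326). FIP1L1 gave 61.3, 66.9 and 74.0 CPM in HaloTag and 59.4, 53.3 and 61.3 CPM in Dendra2 libraries, with HaloTag 25R and Dendra2 70R level with each other (log2 0.22, SE 0.13, edgeR adjusted p 0.391). WDR33 ranged from 65.1 to 90.8 CPM, with its highest value in Dendra2 52R. CPSF1 gave 19.9, 23.6 and 25.2 CPM in HaloTag and 25.6, 18.0 and 26.8 CPM in Dendra2 libraries, highest at 70R with HaloTag and lowest at 52R with Dendra2 (70R to 52R log2 0.32, SE 0.22, edgeR adjusted p 0.965, but 0.05 without Dendra2 52R and 0.65 without HaloTag 52R).

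SYMPK is the scaffold that joins the cleavage module to the rest. SYMPK gave 15.2, 20.8 and 19.7 CPM in HaloTag 25R, 52R and 70R and 27.1, 25.0 and 25.4 CPM in the Dendra2 libraries. All HaloTag values were below all Dendra2 values, with means of 18.6 ± 3.01 and 25.8 ± 1.14 CPM (SD, n = 3 each). The log2 difference was −0.49 (SE 0.16, 95% confidence interval −0.88 to −0.10), with an edgeR p of 0.0214 and an adjusted p of 0.188. In cells called G1 it was −0.36 (edgeR adjusted p 0.256).

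CPSF2, the catalytically inactive partner of the endonuclease CPSF3, showed the largest difference of any member between CTD lengths. CPSF2 gave 16.4, 27.9 and 33.3 CPM in HaloTag 25R, 52R and 70R and 14.3, 27.8 and 29.3 CPM in the Dendra2 libraries. Both 25R libraries were below the other 4, and the order from 25R to 70R was the same with either tag. The log2 difference of 25R to 52R was −0.87 (SE 0.16, 95% confidence interval −1.26 to −0.48), with an edgeR p of 0.00136 and an adjusted p of 0.195. For 70R against 25R it was 1.03 (SE 0.16, 0.64 to 1.42), with an edgeR p of 0.000516 and an adjusted p of 0.18. DESeq2 gave −0.86 (SE 0.21, adjusted p 0.00419) and 1.04 (SE 0.21, adjusted p 0.000233), so the call depends on the tool.

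CPSF3 itself did not follow CPSF2. CPSF3 gave 24.4, 32.9 and 25.1 CPM in HaloTag and 26, 29.2 and 24.2 CPM in Dendra2 libraries, highest at 52R with either tag. The ratio of CPSF2 to CPSF3 was 0.669, 0.846 and 1.33 in HaloTag 25R, 52R and 70R and 0.550, 0.953 and 1.21 in the Dendra2 libraries, and so ordered by CTD length with both tags.

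PAPOLA, the main nuclear poly(A) polymerase, also had its lowest values at 25R. PAPOLA gave 60.8, 79.5 and 107 CPM in HaloTag 25R, 52R and 70R and 60.3, 117 and 115 CPM in the Dendra2 libraries. Both 25R libraries were below the other 4, while HaloTag 52R lay well under the remaining 3. The log2 difference of 25R to 52R was −0.68 (SE 0.19, 95% confidence interval −1.12 to −0.23; edgeR p 0.00934, adjusted p 0.267). For 70R against 25R it was 0.87 (SE 0.19, 0.42 to 1.31; edgeR p 0.00272, adjusted p 0.223), and DESeq2 gave 0.88 with an adjusted p of 0.0102.

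NUDT21, the small subunit of cleavage factor I that binds UGUA upstream of the cut, lay the other way. NUDT21 gave 155, 95 and 113 CPM in HaloTag 25R, 52R and 70R and 153, 109 and 122 CPM in the Dendra2 libraries. Both 25R libraries were above the other 4, which lay close together. The log2 difference of 25R to 52R was 0.60 (SE 0.15, 95% confidence interval 0.25 to 0.96), with an edgeR p of 0.00568 and an adjusted p of 0.244, and DESeq2 gave 0.61 (SE 0.19, adjusted p 0.0485). For 70R against 25R it was −0.40 (SE 0.15, edgeR p 0.0344, adjusted p 0.369). Its last exon also holds part of a second annotated gene on the same strand, ENSG00000288725, so the count of NUDT21 may be affected. Whether that second gene was in the reference used for counting was not checked.

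The partners of NUDT21 in cleavage factor I, CPSF6 and CPSF7, did not show its order. CPSF6 ranged from 45.4 CPM in HaloTag 25R to 58.1 CPM in HaloTag 70R, and CPSF7 from 20.7 to 25.4 CPM. Both 25R libraries were below the other 4 in 4 members (CPSF2, CSTF2T, PAPOLA and XRN2; all genes 9.93%, those of at least 10 CPM 9.78%) and above them in 4 (INTS9, INTS13, NUDT21 and PCF11; 10.1% and 9.31%). In CSTF2T, XRN2, INTS9 and PCF11 the edgeR adjusted p for 25R against 52R was above 0.05, as in every member.

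The promoters of the 3 genes with the largest 25R differences are shown for comparison, as the 250 bases before the first RefSeq start (GRCh38.p14), read 5′ to 3′ on the gene's strand. Capitals mark CCAAT or its reverse complement ATTGG, and GGGCGG or its reverse complement CCGCCC.
CPSF2: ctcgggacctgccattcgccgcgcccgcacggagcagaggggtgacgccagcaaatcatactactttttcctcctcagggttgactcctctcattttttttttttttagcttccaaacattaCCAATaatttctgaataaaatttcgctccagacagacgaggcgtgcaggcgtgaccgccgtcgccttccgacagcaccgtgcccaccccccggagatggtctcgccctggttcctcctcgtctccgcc
PAPOLA: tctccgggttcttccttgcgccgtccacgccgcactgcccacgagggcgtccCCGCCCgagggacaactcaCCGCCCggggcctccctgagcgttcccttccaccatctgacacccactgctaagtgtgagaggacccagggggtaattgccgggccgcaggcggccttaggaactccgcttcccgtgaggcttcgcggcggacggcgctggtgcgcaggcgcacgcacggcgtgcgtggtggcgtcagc
NUDT21: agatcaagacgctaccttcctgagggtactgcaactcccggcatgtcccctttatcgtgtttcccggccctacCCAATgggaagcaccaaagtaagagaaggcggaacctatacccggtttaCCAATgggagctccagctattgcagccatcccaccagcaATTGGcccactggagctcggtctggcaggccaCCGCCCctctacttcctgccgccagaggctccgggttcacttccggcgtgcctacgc
The CPSF2 window is chr14:92121719-92121968 (plus strand), that of PAPOLA chr14:96502126-96502375 (plus) and that of NUDT21 chr16:56451333-56451582 (minus). The PAPOLA window lies inside the GENCODE span of the gene, whose annotated start is farther upstream than the RefSeq start used. CPSF2 held 1 CCAAT match, PAPOLA 2 GGGCGG matches and NUDT21 3 CCAAT matches and 1 GGGCGG match. Both strands were searched, and no matches overlap in these 3 windows. Of 28 members with a RefSeq promoter, 14 held CCAAT, 19 held GGGCGG and 0 held TATAAA, against 33%, 42.3% and 11.1% of 27305 promoters of that length. These matches are descriptions of the letters in the windows.

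None of the remaining factors had an unadjusted p under 0.05 in any contrast. Cleavage stimulation factor, which binds the GU-rich bases after the cut, comprises CSTF1, CSTF3 and CSTF2 or its autosomal copy CSTF2T. CSTF3 gave 71.1, 54.6 and 69.7 CPM in HaloTag and 53.7, 48.9 and 56.3 CPM in Dendra2 libraries, with HaloTag 52R inside the Dendra2 range (edgeR log2 0.29, SE 0.12, adjusted p 0.264). CSTF1 gave 34.1, 37.5 and 35.4 CPM in HaloTag and 40.2, 38.7 and 26.8 CPM in Dendra2 libraries, where Dendra2 70R stood below the other 5. CSTF2 gave 28.3, 27.6 and 27.7 CPM in HaloTag and 31.0, 27.3 and 30.1 CPM in Dendra2 libraries. CSTF2T gave 17.9, 22.6 and 20.9 CPM in HaloTag and 20.6, 21.7 and 26.1 CPM in Dendra2 libraries, lowest at 25R with either tag. The ratio of CSTF2T to CSTF2 was lowest at 25R with both tags, at 0.634 in HaloTag and 0.666 in Dendra2, against 0.752 to 0.868 in the other 4 libraries.

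In cleavage factor II, PCF11 binds the CTD and CLP1 is an RNA kinase. PCF11 ranged from 17.8 to 22.5 CPM and CLP1 from 16.0 to 19.9 CPM. PABPN1, the nuclear poly(A)-binding protein, gave 47.6, 50.2 and 53.9 CPM in HaloTag and 65.5, 71.6 and 49.9 CPM in Dendra2 libraries, with Dendra2 70R among the HaloTag values (tag log2 −0.29, SE 0.16, edgeR adjusted p 0.373). PABPN1 shares its 3′ end with the read-through gene BCL2L2-PABPN1, which had 0 to 8 UMIs per library, so its level is uncertain. XRN2 was lower at 25R than at the other lengths within each tag, and its log2 difference of 70R to 25R was 0.31 (SE 0.15, edgeR p 0.079, adjusted p 0.463).

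CPSF2 and PAPOLA lie close together on the long arm of chromosome 14, CPSF2 at chr14:92121969-92172145 and PAPOLA at chr14:96501433-96567116. After their values were seen, each member's difference was set beside the median of other genes of at least 10 CPM within 5 Mb, members left out. For CPSF2, 23 such neighbours had a median log2 difference of 25R to 52R of −0.71, −0.55 with HaloTag and −0.83 with Dendra2, and 19 of the 23 were below 0 with both tags. CPSF2 itself was at −0.75 with HaloTag and −0.94 with Dendra2. For PAPOLA, 21 neighbours had a median of −0.68, −0.46 with HaloTag and −0.83 with Dendra2, and PAPOLA itself was at −0.38 and −0.95. Genes around CPSF2 and PAPOLA were thus lower at 25R too, by medians near the members' own values. A neighbour median lower than theirs occurred for 0.43% (CPSF2) and 0.70% (PAPOLA) of 8141 genes. The windows of CPSF2 and PAPOLA overlap and most of the neighbours are in both sets, so their medians are not separate observations.

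For 70R against 25R the neighbours stood higher again. The median was 0.92 around CPSF2 and 0.82 around PAPOLA. Along chromosome 14, 64 genes within 20 Mb of PAPOLA had medians of −0.46 with HaloTag and −0.82 with Dendra2 for 25R to 52R, and 53 of the 64 were below 0 with both tags. The 215 genes farther away had medians of −0.12 and −0.25, and 109 of them were below 0 with both. PABPN1, near the other end of the chromosome's long arm, had 48 neighbours with a median of −0.10. DNA copy number was not measured, and the part of this regional difference in the values of CPSF2 and PAPOLA was not tested.

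**Figure D3:**
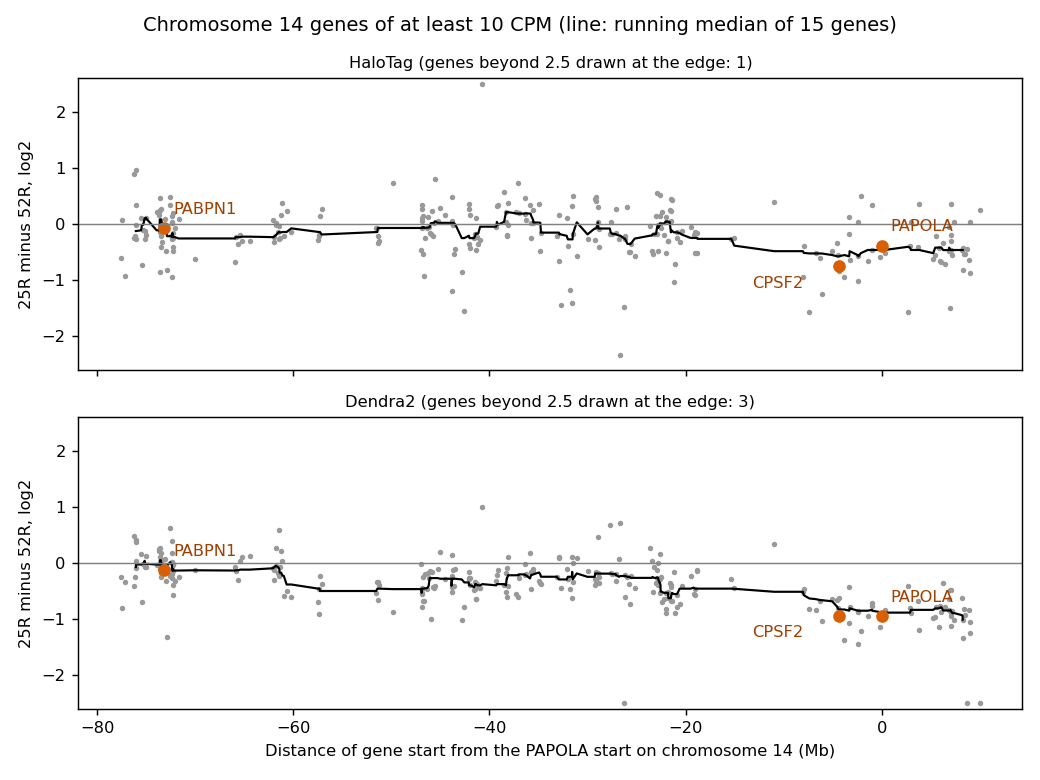
Log2 difference of 25R to 52R for genes of at least 10 CPM on chromosome 14, by distance from the start of PAPOLA in Mb, with a panel for each tag; points are genes, the line is a running median of 15 genes, values beyond 2.5 are drawn at the edge, and CPSF2, PAPOLA and PABPN1 are marked. Genes within 20 Mb of PAPOLA have medians of −0.46 (HaloTag) and −0.82 (Dendra2).

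NUDT21 differed from its surroundings. Its 34 neighbours on chromosome 16 had a median log2 difference of 25R to 52R of 0.09, 0.11 with HaloTag and −0.02 with Dendra2, whereas NUDT21 was at 0.71 and 0.50. INTS6 likewise stood apart by tag, with a median of 0.00 over 18 neighbours on chromosome 13. SYMPK did not stand so far apart. Its 110 neighbours on chromosome 19 had a median HaloTag to Dendra2 difference of −0.40, which 0.87% of genes had lower. At 25R, SYMPK was at −0.82 and its neighbours at −0.73, and at 70R they were at −0.36 and −0.13.

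The single libraries that stood apart in INTS10 and INTS13 also had shifted neighbours, by less. In HaloTag, INTS10 was at 0.75 for 25R to 52R and its 23 neighbours at 0.42, and in Dendra2 at 0.18 and −0.07. In Dendra2, INTS13 was at 0.93 and its 24 neighbours at 0.37, and in HaloTag at 0.23 and 0.00. INTS2, by contrast, was at −0.58 for 70R to 52R with a median of −0.18 over its 57 neighbours. Over the 33 members, the difference of a gene and the median of its neighbours had a Pearson correlation of 0.54 by tag, 0.74 for 25R to 52R, 0.75 for 70R to 52R and 0.83 for 70R to 25R, against 0.27, 0.29, 0.49 and 0.39 over 8141 genes. The Spearman correlations over the members were 0.50, 0.61, 0.69 and 0.62 in the same order, and were not computed over all genes. These correlations are across genes, which share libraries and, where they are close together, neighbours, as CPSF2 and PAPOLA do.

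**Figure D4:**
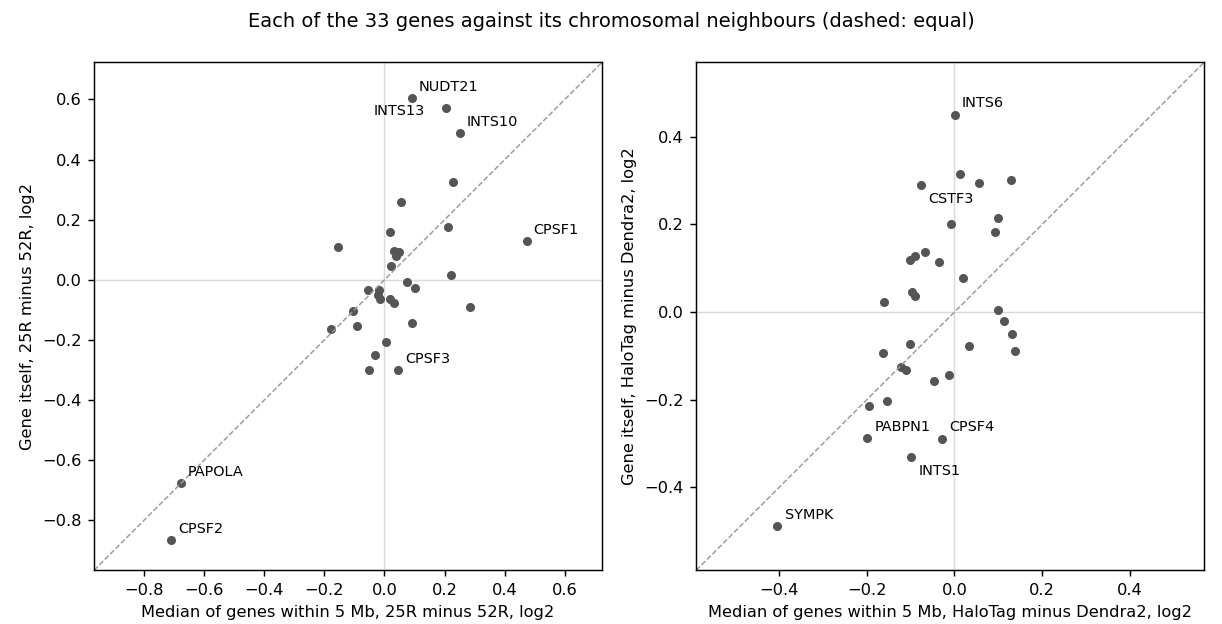
Log2 difference of each member (vertical axis) against the median of its neighbours within 5 Mb (horizontal axis), for 25R to 52R on the left and HaloTag to Dendra2 on the right; the dashed line marks equal values. On the left CPSF2 (−0.87 against −0.71) and PAPOLA (−0.68 against −0.68) lie near the line and NUDT21 (0.60 against 0.09) above it, and on the right INTS6 (0.45 against 0.00) lies above it.

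The deposited kinetic tables describe bursting, in which a gene makes transcripts in episodes. They give a parameter K, used here as burst frequency in its own unit, and the mean divided by K, used as burst size. The deposited mean was 1.00 to 1.01 times the mean UMIs per kept cell, as library medians over 4355 genes. The mean was thus not scaled for depth, and burst sizes compared between libraries include differences in cell depth. K may also include the spread in depth between cells of a library, and this was not tested. Differences in K are therefore not shown to be differences in bursting. Median UMIs per cell ran from 10812 in HaloTag 70R to 18739 in Dendra2 70R. Both were tested with limma on the log10 scale for 4355 genes averaging 0.5 or more UMIs per cell. That limit left 11 members (INTS1, INTS10, WDR33, FIP1L1, NUDT21, CPSF6, CSTF1, CSTF3, PAPOLA, PABPN1 and XRN2). In these the upper limit of K was a median of 1.62 times the lower limit, against 4.97 times in the 22 members left out.

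Burst frequency passed in 0 of 11 members by limma in every contrast, against 2.82% of all genes between tags, 0.0459% for 25R against 52R, 0% for 70R against 52R and 0.023% for 70R against 25R. At an unadjusted p under 0.05 it passed in 0, 2, 2 and 1 members, against 13.9%, 8.2%, 4.68% and 5.97% of all genes. For burst size between tags 0 of 11 passed as well (all genes 10.4%), and 1 did unadjusted (30.1%). Burst size passed in 0 of 11 members between CTD lengths as well, against 0.712% of all genes for 25R to 52R, 0.0459% for 70R to 52R and 0.459% for 70R to 25R. Unadjusted, it passed in 2 (INTS10 and NUDT21), 0 and 0 members, against 7.83%, 2.87% and 6.22%. For 25R against 52R the fitted log10 difference in K had a median of −0.11 over the 11 members, against −0.04 for all genes.

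INTS10 had the largest difference in K. Its K was 3.21, 4.63 and 2.73 in HaloTag 25R, 52R and 70R and 3.08, 4.76 and 2.59 in the Dendra2 libraries. Both 52R values were the highest, although the authors' limits overlap in all 6 libraries. The largest lower limit was 2.96 and the smallest upper limit 3.64. The log10 difference of 70R to 52R was −0.25 (limma p 0.00144, adjusted p 0.449). NUDT21, higher at 25R in level, had burst sizes of 0.722, 0.383 and 0.459 in HaloTag and 0.676, 0.436 and 0.563 in Dendra2 libraries, largest at 25R with either tag (25R to 52R log10 difference 0.23, limma p 0.0247, adjusted p 0.507). PAPOLA had burst sizes of 0.346, 0.466 and 0.406 in HaloTag and 0.301, 0.516 and 0.58 in Dendra2 libraries, smallest at 25R with either tag. Burst size is the mean divided by K, so these sizes are not observations separate from the levels of NUDT21 and PAPOLA. INTS1, lower with HaloTag in level, had burst sizes of 0.125, 0.189 and 0.075 in HaloTag and 0.333, 0.17 and 0.197 in Dendra2 libraries, and these overlapped (log10 difference −0.27, limma p 0.0266, adjusted p 0.119).

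**Figure D5:**
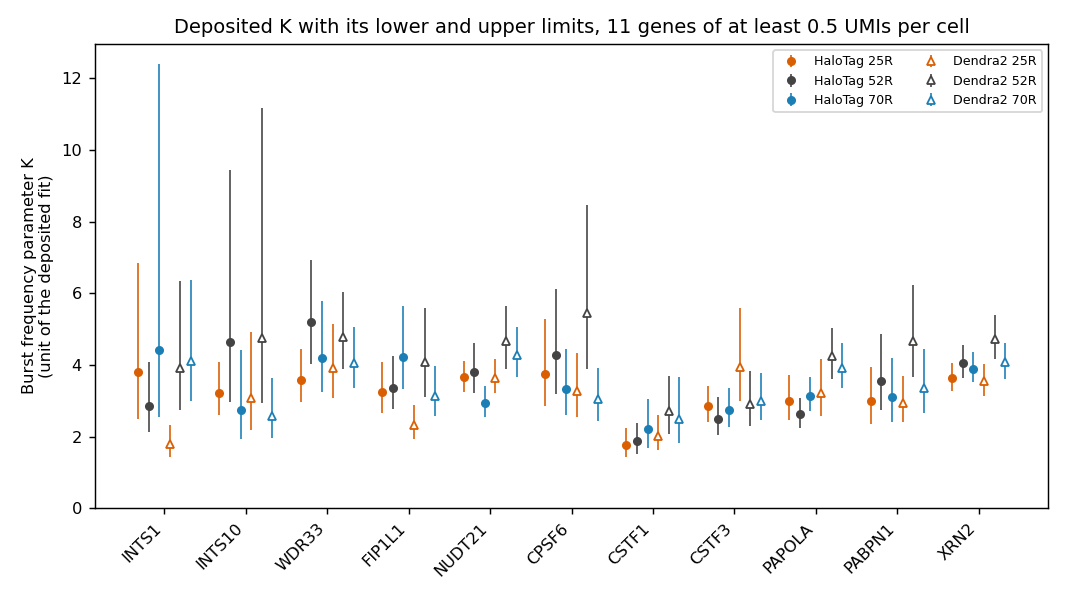
Burst frequency K of the 11 members tested, in each library, on a linear axis in the unit of the deposited tables, with the authors' lower and upper limits as bars, filled circles for HaloTag and open triangles for Dendra2. INTS10 is highest at 52R with both tags (4.63 and 4.76), with wide limits.

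The levels of the 33 genes also differed by cell-cycle phase. Phases were called within each library from S and G2/M gene lists that hold no member, and levels were compared within libraries as a description. In S-phase cells 17 of 33 members were above G1 in all 6 libraries (genes of at least 10 CPM 31.8%) and 1, PCF11, was below G1 in all 6 (18.5%). In G2/M cells 23 members were above G1 in all 6 (40.3%) and 0 below (18.6%). The median member difference was 0.15 in S and 0.21 in G2/M on the log2 scale, against 0.04 and 0.08 over those genes, a set that INTS3 and INTS9 do not reach.

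CSTF1 had the largest median G2/M difference. CSTF1 gave 23.1, 27.3 and 27.4 CPM in G1 and 46.0, 49.8 and 44.9 CPM in G2/M cells of HaloTag 25R, 52R and 70R, and 28.3, 30.3 and 21.1 against 47.7, 45.1 and 31.2 CPM in the Dendra2 libraries. Its median log2 difference was 0.72, from 0.55 to 0.98 over the 6 libraries. PCF11, which binds the CTD, had a median of 0.56 in G2/M (0.48 to 0.75) and of −0.16 in S (−0.42 to −0.02). INTS7 was highest in S, with a median of 0.58 over G1 (0.25 to 1.14), and CSTF2T and CSTF2 followed with 0.48 and 0.47. The tags also differed in the share of cells in each phase, and with cells called G1 alone 0 members passed the adjusted edgeR test between tags.

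Genes that work beside these factors were described from 5 further lists, and 0 genes of any passed the adjusted edgeR test in any contrast (all genes 0.327% between tags). By tag at an unadjusted p under 0.05, 2 of 9 Integrator-associated genes, 1 of 14 genes for transcription of small nuclear RNA genes, 0 of 9 polyadenylation accessory genes, 2 of 16 termination genes and 1 of 6 histone 3′-end genes passed, against 19.6% of all genes. In the same order of lists, 2, 0, 0, 0 and 1 passed unadjusted for 25R against 52R (all genes 12.7%), 0, 1, 1, 1 and 0 for 70R against 52R (4.65%) and 1, 1, 0, 2 and 1 for 70R against 25R (12.2%). LSM10 and SNAPC1 are described after their values were seen. LSM10, a subunit of the U7 particle that processes histone messages, gave 74.2, 58.1 and 58.2 CPM in HaloTag and 94.9, 82.4 and 107 CPM in Dendra2 libraries. The groups did not overlap, with a log2 difference of −0.58 (SE 0.15, edgeR adjusted p 0.132). SNAPC1, a subunit of the complex that starts small nuclear RNA genes, was ordered by CTD length, with 77.0, 85.6 and 125 CPM in HaloTag and 61.7, 80.4 and 122 CPM in Dendra2 libraries. Its log2 difference of 70R to 25R was 0.84 (edgeR adjusted p 0.206). Among genes of at least 10 CPM, the lowest and highest 2 of each list by tag are given as edgeR log2 differences of HaloTag to Dendra2. Beside Integrator they were −0.42 for C7orf26, a later-named subunit, and −0.41 for BRAT1, which binds the cleavage pair, against 0.36 for NABP1 and 0.10 for NABP2, the single-strand DNA binding partners of INTS3. For small nuclear RNA genes they were −0.40 for TOE1, which trims small nuclear RNAs, −0.39 for ICE1, 0.19 for POU2F1 and 0.15 for SNAPC1. Accessory polyadenylation genes ran from −0.23 for PPP1CB and −0.18 for SSU72 to 0.22 for PPP1CA and 0.29 for the cytoplasmic poly(A)-binding protein gene PABPC1. Termination genes ran from −0.56 for CDKN2AIPNL and −0.49 for SUB1 to 0.24 for ZFC3H1 and 0.22 for SCAF8. Beside LSM10, the histone list gave −0.07 for CASP8AP2, 0.15 for NPAT and 0.03 for SLBP, the histone stem-loop binding protein gene. The median tag difference was −0.06 over the Integrator-associated list, −0.09 over that for small nuclear RNA genes, 0.17 over polyadenylation accessory genes, −0.11 over termination genes and −0.02 over histone 3′-end genes, against 0.03 over all genes.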

How the data were processed

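Single-cell 3′ RNA libraries numbered 6, 1 for each genotype. Of the 9 samples in the labels, 2 belong to each HaloTag library, as sequencing runs that the deposited matrices merge. The authors deposited UMI counts per gene and cell from Cell Ranger 6.1.2 (per the file headers), after bcl2fastq and on GRCh38 (per the submitters' processing notes). The sources used here do not say whether counting used strand. Antisense and overlapping genes were therefore not told apart: the last exon of 4 members overlaps another gene on the same strand and that of 11 members a gene on the opposite strand. The deposited kinetic tables hold a mean, K and a squared coefficient of variation, scores that per the file headers come from a beta-Poisson model. No unit or scaling for depth is stated, but the mean was close to the unscaled mean UMIs per kept cell.

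Barcodes under 500 genes or over 20% mitochondrial counts, 2.01% to 3.03% of each library, were dropped, and no doublet caller was run. Counts were summed per library, without the tag sequence, filtered with filterByExpr grouped by tag, normalised by TMM (trimmed mean of M values) and fitted with edgeR 4.0.16 (quasi-likelihood, robust prior, tag plus CTD length, 2 residual degrees of freedom) in R 4.3.3. K and mean divided by K were fitted on the log10 scale with limma 3.58.1, and DESeq2 1.42.0 was run beside edgeR. P-values were adjusted by Benjamini-Hochberg over all genes tested. Differences between single libraries were taken on log2(CPM + 0.5). Phases were called within each library after thinning each cell to 5000 UMIs. Coordinates and transcripts came from GENCODE v44 and promoters from RefSeq on GRCh38.p14, which held 28 of the 33 members. Tables and figures were made in Python 3.11.15 with pandas 2.3.3, numpy 2.4.6 and matplotlib 3.10.9.

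Members and gene lists were chosen with earlier results of these data known. Values in every library were given for members past the adjusted threshold, the 5 per direction with the largest log2 difference between tags, the 3 per direction for each CTD contrast among members of at least 10 CPM, the 3 highest and 3 lowest by mean, the pairs CPSF3 with CPSF2, INTS11 with INTS9 and CSTF2 with CSTF2T, and, of other lists, for genes past the threshold, with log2 differences for the 2 per direction and list. INTS4, the library values of LSM10 and SNAPC1, and members whose groups did not overlap, were named after their values were seen. Several gene filters and edgeR settings were tried after the data were seen, and those used were kept because their gene count and number of tag calls matched an earlier analysis of these data. On simulated data of 17804 genes, edgeR recovered 40% of 2-fold and 92% of 4-fold changes between tags, with 28 false among 160 calls. On 17785 genes it recovered 23% and 83% between 70R and 25R, with 26 false among 132 calls. With limma, 91% of changes of 0.3 on the log10 scale were recovered between tags among 4355 genes. That simulation gave every gene the same spread, so it does not show the recovery for genes of unlike spread.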

Additional observations from a re-analysis of the deposited data

How the results depend on the processing

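Alternatives were DESeq2, library totals in place of TMM factors, no gene filter, all deposited barcodes, at most 10% mitochondrial counts, cells called G1, each library left out, and, added after seeing the data, other gene filters and edgeR settings. For levels, 0 members were called under all of them, with the exceptions of DESeq2 (CPSF2 and NUDT21 for 25R against 52R, 2 members, and CPSF2 and PAPOLA for 70R against 25R, 2 members) and no filter (1 member, CPSF2, for 70R against 25R, edgeR log2 1.04, adjusted p 0.0466). Of 560 values for 17 named members, 555 kept their direction and their side of the threshold, 5 passed it and 0 reversed.

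Counts over all genes moved more, and the cause was not tested. Between tags, 59 genes became 1130 with DESeq2, 1025 in G1 cells, 98 with library totals and 408 without a filter. For 25R against 52R, 8 became 489 with DESeq2 and 106 without a filter. For 70R against 52R, 0 became 67, 1 in G1 cells and 6 without a filter, and for 70R against 25R, 0 became 448 with DESeq2 and 72 without a filter. In the settings added later the tag count ran from 47 (prior not robust) to 67 (newer edgeR fit). For burst frequency, 123 between tags became 0 over all genes with finite values and 54 after centring, 2 for 25R against 52R and 1 for 70R against 25R became 0 under both, and 0 for 70R against 52R became 1 without a variance trend. Burst size between tags went from 452 to 0, 141 and 291 under the same 3 changes.

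With single libraries left out, which leaves 1 residual degree of freedom, members called stayed at 0 for levels, for burst frequency and for burst size between tags (burst size between CTD lengths was not run so). Counts over all genes ran from 0 (without HaloTag 52R or Dendra2 70R) to 88 between tags, 8 without Dendra2 52R and 20 without HaloTag 70R. They ran from 0 (without HaloTag 52R) to 464 (without Dendra2 25R) for 25R against 52R, 0 to 2 for 70R against 52R (2 without Dendra2 70R), and 0 to 493 (without Dendra2 25R) for 70R against 25R. For burst frequency the ranges were 0 to 42, 2 to 32, 0 to 19 and 1 to 43 in the order of contrasts above, and for burst size between tags 19 to 96. CPSF2 ran from −0.96 to −0.76 for 25R to 52R and from 0.97 to 1.10 for 70R to 25R, PAPOLA from −0.93 to −0.40 and NUDT21 from 0.51 to 0.71 for 25R to 52R. No paired analysis was possible because the replicate numbers in the labels are sequencing runs of 1 library, merged in the files. The fit of tag plus CTD length already compares tags at equal CTD length.

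Depth limits INTS9 most, with a UMI in 7.7% to 12.8% of cells against 85.2% to 92.2% for XRN2, and K had wide limits in some low members, as for INTS11 in HaloTag 25R (9.29, limits 3.5 to 293).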
